A study of Mus musculus with 6 samples.

Results

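The Trim genes encode the tripartite-motif proteins, and they were taken here as protein-coding mouse genes whose symbol is Trim followed by a number and at most 1 letter. This gave 67 genes among the 55401 gene identifiers of the count table. RNA came from ADC106, a mouse angiosarcoma line, that is, a line from a malignant tumour of vessel-lining cells. Cells received 12.5 nM of a mimic, a synthetic duplex that stands in for a microRNA, and were collected on day 3. The NC group got the mimic labelled NC and carried the genotype label WT, and the miR-497 group got the miR-497 mimic and was labelled as overexpressing miR-497. Each group had 3 libraries, all poly(A)-enriched and all from 1 cell line. The labels do not say whether the libraries of a group came from separate cultures, so p-values measure only the spread between these samples, which may be technical. Untransfected cells were not analysed here.

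A typical Trim protein starts with a RING finger, which recruits a ubiquitin-conjugating enzyme, and continues with 1 or more B-box zinc fingers and a coiled coil through which the proteins pair up. The carboxy-terminal part differs between members and picks the substrate: a PRY/SPRY domain in many, NHL repeats, a PHD finger with a bromodomain, or others. Many members with a SPRY domain act in innate immunity, and a set of them is transcribed in response to interferon through an element called the ISRE, which binds interferon regulatory factors. MicroRNAs act at another level, by pairing of their seed with sites in the 3′ UTR of a transcript.

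Before the counts, the sequences that bear on both levels are given. The mature guide of the mimic's namesake, mmu-miR-497a-5p (chromosome 11, positions 70234730 to 70234751, plus strand, GRCm38.p6), is shown with its seed, bases 2 to 8, in capitals.
mmu-miR-497a-5p: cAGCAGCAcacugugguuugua

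For the interferon side, promoter windows of 300 bases from RefSeq (GRCm38.p6; 250 bases before and 50 from the start of transcription on) were available for 52 of the 67 genes. They were searched on both strands for the core letters of an ISRE, GAAA and GAAA with any 2 bases between them, and overlapping matches were merged. Each stretch of 30 bases below is written 5′ to 3′ on the strand of its gene, with the match in capitals (TTTC and TTTC where the match is on the other strand). These are all the interferon-responsive members in which the letters were found, and they are shown because the same letters recur in genes that fell and in genes that were not called. For Trim30a, a match in another of its windows is not shown.
Trim21, minus strand, chr7:102565447-102565476: ctgagagGAAACTGAAAGTGAAAtttggac
Trim34a, plus strand, chr7:104244457-104244486: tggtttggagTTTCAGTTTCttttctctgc
Trim30d, minus strand, chr7:104507871-104507900: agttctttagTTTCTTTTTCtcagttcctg
Trim30a, minus strand, chr7:104465210-104465239: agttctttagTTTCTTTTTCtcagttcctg
Trim12a, minus strand, chr7:104315466-104315495: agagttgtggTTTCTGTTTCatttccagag
Trim12c, minus strand, chr7:104353359-104353388: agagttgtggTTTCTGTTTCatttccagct
Trim5, minus strand, chr7:104288136-104288165: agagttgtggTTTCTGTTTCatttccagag
Trim26, plus strand, chr17:36836979-36837008: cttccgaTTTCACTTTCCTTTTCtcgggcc

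With miR-497, changes in the Trim family ran from 4.79-fold lower for Trim21 to 1.92-fold higher for Trim2. Of the 67 members, 44 had enough counts to be tested. The test was edgeR's quasi-likelihood F-test, and its p-values were adjusted by Benjamini-Hochberg across the 14661 tested genes. At an adjusted p under 0.05, 13 of the 44 were lower with miR-497 and 13 were higher, and 18 were not called. Among all tested genes 26.0% were lower and 23.8% higher, 49.8% in all, so the share of members called was close to the background in both directions. At least 2-fold lower were 6 of the 44 members, against 5.19% of all tested genes, and none of the 44 was at least 2-fold higher, against 3.63%. The median log2 fold change (miR-497 over NC) was -0.05 over the 44 members and -0.02 over all tested genes.

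**Figure D1:**
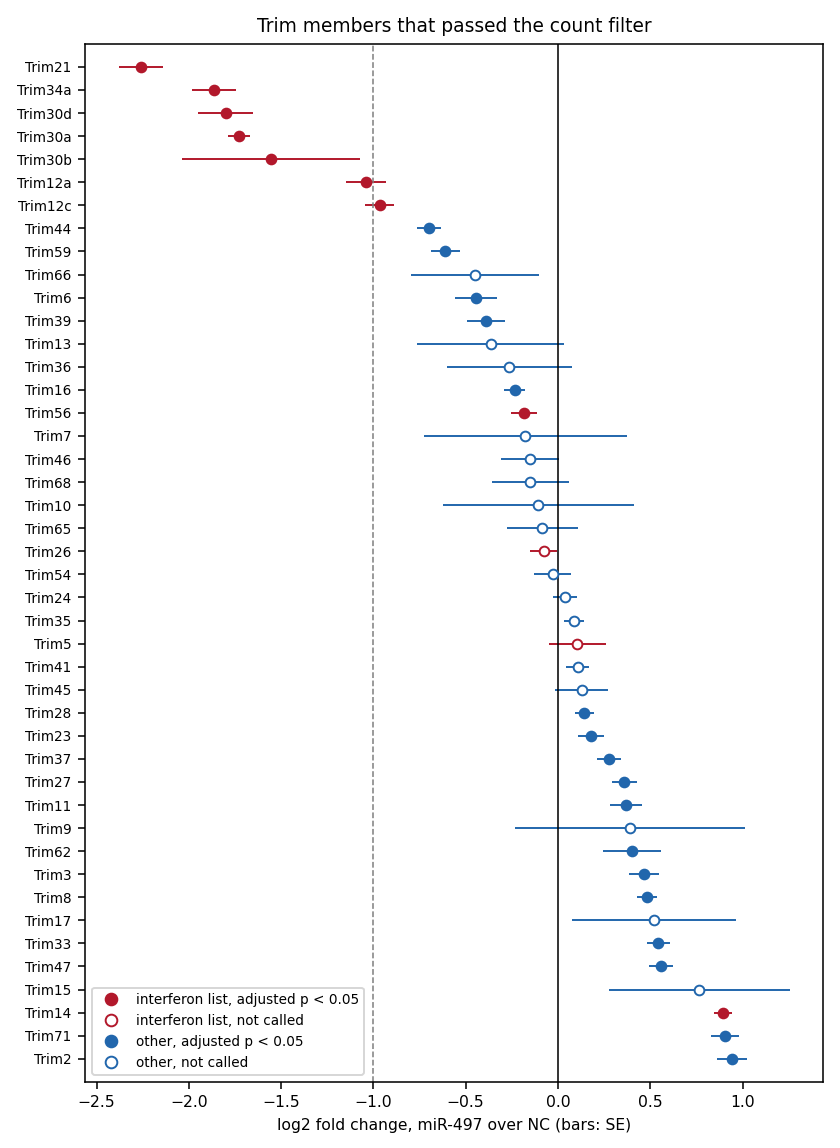
Log2 fold change (horizontal axis, miR-497 over NC) of the 44 tested Trim genes, 1 gene per line, with its standard error as a bar. Red marks the interferon list and blue the other members, filled points were called, and the dashed line is at -1. The 6 genes at the low end lie between -2.26 and -1.04, while the highest gene is at 0.94.

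A list of 15 Trim genes known to respond to interferon, was written from general knowledge. Of its 11 tested genes 8 fell, 1 rose and 2 were not called, with a median log2 fold change of -1.04. Among all tested genes 26.0% were lower and 23.8% higher, and 5.19% were at least 2-fold lower. Calls in either direction with a change of at least 0.5 in size made up 24.7% of all tested genes. Of the 33 tested members outside the list, 5 fell by 0.24 to 0.70 on the log2 scale, 12 rose by 0.14 to 0.94, and 16 were not called, with a median of 0.11. All 6 members that fell at least 2-fold were on the list: Trim21, Trim34a, Trim30d, Trim30a, Trim30b and Trim12a. They are called here the members that follow the interferon genes, since 29 of 29 tested genes of a comparison list of interferon-stimulated genes (Ifit, Oas, Mx, Irf and Gbp genes and others) also fell, 28 of them at least 2-fold, with a median log2 fold change of -3.05. The 2-fold cut is the size that nearly all of these comparison genes had reached in an earlier look at these data. The 28 of 29 therefore lends the cut no support. Trim30b, and comparison genes such as Mx1 and Oas2, passed the count filter only through the NC libraries, where they were high. Their falls therefore add no support to these counts. The split also uses the same contrast as the values and is a description. At its border, Trim12a lay just inside with -1.04 and Trim12c just outside with -0.97. The counts of both lists come from libraries in which interferon-related changes were already known.

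Summed over the 6 genes, the level was 344, 329 and 299 CPM (read counts relative to the library size after TMM scaling) in NC libraries 1 to 3. With miR-497 the sum was 98.5, 106 and 97.8 CPM. These 6 genes were picked by their fall, so a lower sum was fixed by that choice. All 15 genes of the interferon list summed to 703, 680 and 639 CPM with NC. With miR-497 the 15 genes summed to 485, 512 and 504 CPM. The 52 members outside the interferon list summed to 1431, 1435 and 1430 CPM with NC and 1554, 1584 and 1575 CPM with miR-497. In bulk RNA, fewer cells with a transcript and less transcript per cell cannot be told apart.

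Trim21, a cytosolic antibody receptor that ubiquitinates antibody-bound pathogens, fell most. Gene positions here and below are those of GRCm38. Trim21 (ENSMUSG00000030966, chr7:102557921-102565486, minus strand) was at 33.2, 37.8 and 35.3 CPM in the NC libraries and at 6.17, 6.86 and 9.09 CPM in the miR-497 libraries. The groups were far apart, with the highest miR-497 library at 9.09 and the lowest NC library at 33.2 CPM. The level was 35.5 ± 2.31 CPM with NC and 7.37 ± 1.53 CPM with miR-497 (SD, n = 3). On the log2 scale the change was -2.26 (adjusted p = 1.79e-10 in edgeR, SE 0.119), or 4.79-fold lower.

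Trim30a was the most abundant of the members that follow and the second most abundant Trim gene per length. It is an intracellular SPRY protein reported to restrain signalling downstream of Toll-like receptors. Trim30a (ENSMUSG00000030921, chr7:104409025-104465193, minus strand) was at 186, 177 and 173 CPM with NC and at 55.9, 56.6 and 49.4 CPM with miR-497. Both groups were tight and did not overlap. The level went from 179 ± 6.49 to 54.0 ± 3.95 CPM (SD, n = 3). This is 3.31-fold lower, or -1.73 on the log2 scale (adjusted p = 1.45e-12 in edgeR, SE 0.0615).

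Its neighbour Trim30d (ENSMUSG00000057596, chr7:104470014-104507849, minus strand), a close copy of Trim30a, was at 36.8, 34.4 and 26.3 CPM with NC and at 8.08, 11.99 and 7.84 CPM with miR-497. The miR-497 library 2 was the highest of its group, still under the lowest NC library. Trim30d fell by 1.80 on the log2 scale (adjusted p = 3.83e-08 in edgeR, SE 0.149). Trim30b (ENSMUSG00000052749, chr7:104355382-104369884, minus strand), the third copy tested, had few reads: 40, 39 and 15 counts with NC and 7, 13 and 8 counts with miR-497. Its groups did not overlap, but NC library 3 was within 2 counts of the highest miR-497 library. Trim30b fell by 1.55 on the log2 scale (adjusted p = 0.0131 in edgeR, SE 0.482), and the call was lost without NC replicate 1 (adjusted p = 0.0622), NC replicate 2 (0.0579) or miR-497 replicate 3 (0.0550).

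Trim34a (ENSMUSG00000056144, chr7:104244457-104262234, plus strand), a relative of the human antiviral gene TRIM34, was at 38.5, 32.8 and 30.9 CPM with NC. With miR-497 it was at 7.60, 9.88 and 10.5 CPM, without overlap. Trim34a fell by 1.86 on the log2 scale (adjusted p = 1.49e-09 in edgeR, SE 0.117), or 3.64-fold lower. An antisense gene, Gm47248, covers 23.5% of its exon bases but had 0 counts in the 6 libraries.

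Trim12a and Trim12c are mouse counterparts of human TRIM5, which binds retroviral capsids, and both fell by close to 2-fold. Trim12a (ENSMUSG00000066258, chr7:104299894-104315466, minus strand) was at 48.4, 45.6 and 32.9 CPM with NC and at 20.5, 20.6 and 20.7 CPM with miR-497. NC library 3 was low within its group, and the miR-497 libraries were nearly equal. Trim12a fell by 1.04 on the log2 scale (adjusted p = 7.08e-07 in edgeR, SE 0.111). Trim12c (ENSMUSG00000057143, chr7:104338754-104353362, minus strand) was at 70.1, 67.6 and 57.3 CPM with NC and at 33.9, 32.2 and 33.9 CPM with miR-497, again without overlap. Trim12c fell by 0.97 on the log2 scale (adjusted p = 3.32e-08 in edgeR, SE 0.0792).

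**Figure D2:**
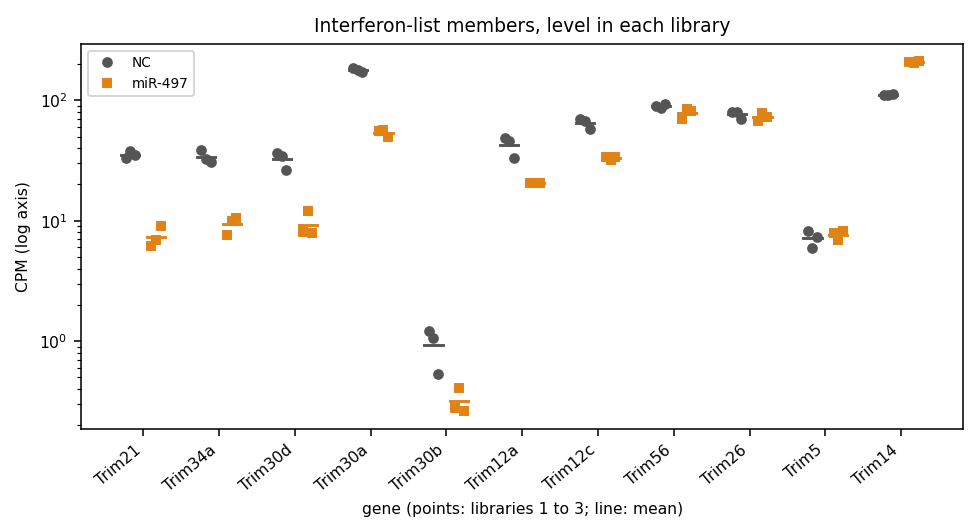
Level in CPM (vertical log axis) of the 11 tested interferon-list Trim genes in each of the 6 libraries, with NC as circles and miR-497 as squares and the group mean as a line. Trim21, Trim34a, Trim30d, Trim30a, Trim12a and Trim12c separate downward with miR-497, Trim14 separates upward from 111 to 207 CPM, and Trim5 and Trim26 overlap.

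The third TRIM5-like gene, Trim5 itself, was not called. Trim5 (ENSMUSG00000060441, chr7:104263386-104288094, minus strand) was at 8.15, 5.89 and 7.35 CPM with NC and at 7.92, 6.86 and 8.203 CPM with miR-497, with the groups overlapping. The log2 fold change was 0.10 with a 95% interval from -0.22 to 0.43 (edgeR adjusted p = 0.605), so a fall as large as that of Trim12a lies outside the interval. Without NC replicate 2, the lowest NC library, it was -0.01 (adjusted p = 0.957). The log2 ratio of Trim12a to Trim5 was 2.57, 2.95 and 2.16 in the NC libraries and 1.37, 1.59 and 1.33 in the miR-497 libraries. The pair was chosen after its values were seen, so these ratios only restate the levels and carry no test.

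Trim26, a SPRY-family ligase encoded near the major histocompatibility complex, was not called either. Trim26 (chr17:36837134-36859398, plus strand) was at 79.6, 80.2 and 69.3 CPM with NC and at 67.2, 77.8 and 72.2 CPM with miR-497, a log2 fold change of -0.08 with a 95% interval from -0.23 to 0.08 (edgeR adjusted p = 0.397). Trim56, an antiviral ligase that acts on the DNA-sensing adaptor STING, was at 89.4, 86.4 and 92.8 CPM with NC and at 70.0, 85.1 and 81.2 CPM with miR-497. Its groups did not overlap, but the lowest NC library, at 86.4 CPM, was close to the highest miR-497 library, at 85.1 CPM. The log2 fold change was -0.18 (adjusted p = 0.0382 in edgeR, SE 0.0696), and the call was lost in 7 of 12 alternatives, with adjusted p up to 0.204 without miR-497 replicate 1.

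Trim14 was the interferon-list member that rose. The protein lacks a RING finger and works as an adaptor of the antiviral signalling protein MAVS on mitochondria. Trim14 (ENSMUSG00000039853, chr4:46493781-46536141, minus strand) was at 111, 110 and 113 CPM with NC and at 207, 203 and 210 CPM with miR-497. The spread within each group was small beside the gap between them. Trim14 rose by 0.89 on the log2 scale (adjusted p = 3.03e-10 in edgeR, SE 0.0494), or 1.86-fold higher. Exons of genes on the opposite strand cover 38.0% of its exon bases, chiefly those of Nans, a sialic acid synthase gene. Nans was at 48.3 ± 3.24 CPM with NC and 57.2 ± 2.66 CPM with miR-497 (SD, n = 3) and rose by 0.24 on the log2 scale (edgeR adjusted p = 0.00808). Whether strand was used in counting is not given in the sources used here, and the part of Nans reads in the Trim14 value was not tested.

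The members that follow all lie on chromosome 7. That chromosome holds 16 of the 67 members, of which 13 were tested, 8 were lower and 2 higher. Among all tested genes 26.0% were lower and 23.8% higher. All of the 8 lower genes except Trim6 are on the interferon list, so this count largely restates the list. From the start of Trim34a to the end of Trim30d (chr7:104244457-104507849, 263 kb in GRCm38) the annotation has 9 protein-coding genes. All 9 are Trim genes and all 9 are on the interferon list: in order of position Trim34a, Trim5, Trim12a, Trim34b, Trim12c, Trim30b, Trim30c, Trim30a and Trim30d. Trim5 was thus surrounded by neighbours that fell on either side. Trim34b and Trim30c were below the count filter, with 12, 27 and 3 counts of Trim34b in the NC libraries and 3, 1 and 2 with miR-497. Trim30c had 6, 7 and 2 counts with NC and 0, 4 and 0 with miR-497.

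Trim6, which makes unanchored ubiquitin chains in interferon signalling and was not placed on the list, borders the block. Trim6 (chr7:104218793-104235152, plus strand) was at 13.9, 12.7 and 12.6 CPM with NC and at 9.51, 10.2 and 9.06 CPM with miR-497. The groups did not overlap, and the log2 fold change was -0.44 (adjusted p = 0.00330 in edgeR, SE 0.112). Genes of this block are copies of each other, and how the authors' counting treated reads that align to several copies is not given in the sources used here. The split of reads among Trim12a, Trim12c and Trim5, and among the Trim30 and Trim34 copies, is therefore uncertain.

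**Figure D3:**
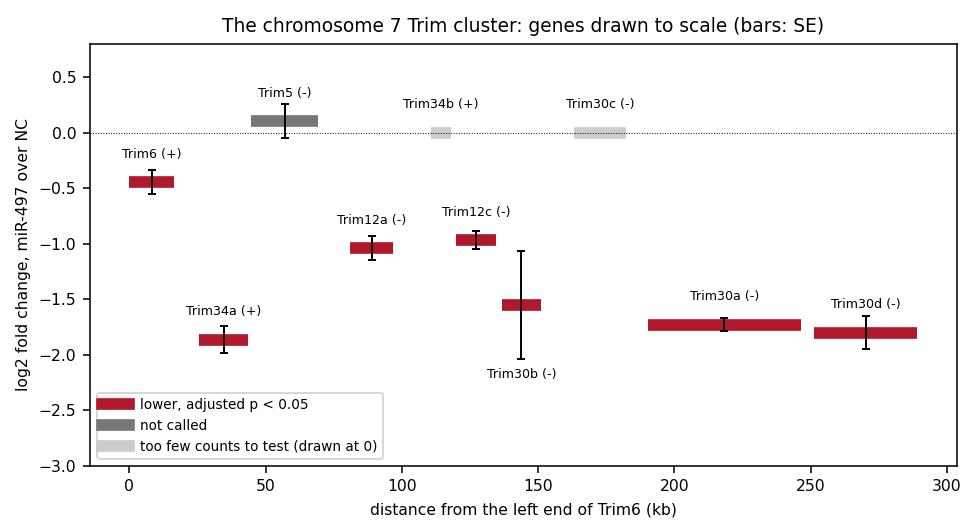
Trim genes of the chromosome 7 block and the adjacent Trim6, drawn to scale by distance in kb from the left end of Trim6 (horizontal axis) and placed at their log2 fold change (vertical axis, bars are standard errors, signs in brackets are strands). Trim5 lies at 0.10 between lower genes, and Trim34b and Trim30c, too low to test, are drawn at 0.

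The ISRE-like letters were found in members that fell, in members that were not called, and in Trim2, which rose. In Trim2 they lay in 1 of its 5 windows, at chr3:84212791-84212820. That window is inside the gene, far from its 5′ end at 84306877 on the minus strand. The motif was found in 8 of the 10 tested interferon-list genes with a promoter entry (80.0%), in 1 of 24 tested members outside the list (4.17%, Trim2), and in 413 of 10816 tested genes (3.82%). It was found in 12 of 21 genes of the interferon-stimulated comparison list (57.1%) and in 5 of the 6 members that follow. With the untested list genes counted as well, it was in 8 of the 14 with a promoter entry (57.1%). Trim14, the list member that rose, had no promoter entry. Promoters of recent gene copies share their sequence and are not independent. The stretches of Trim12a and Trim5 printed above are identical in 30 of 30 bases, while the log2 fold changes were -1.04 and 0.10. Trim12c matched each of them in 28 of 30 bases. Relative to the RefSeq start of transcription that set the windows, the match lies after it in Trim12a (11 to 20). The GENCODE start of Trim12a is at 104315466 on the minus strand, and the match lies before that start. In Trim5 (-49 to -40) and Trim12c (-29 to -20) the match lies before the start in both annotations. The stretches of Trim30a and Trim30d were identical as well. Trim26 carries 2 overlapping matches and was not called, and no match lies in the windows of Trim30b and Trim56. Of all 32851 windows, 3.44% hold the letters. A match is not evidence of a bound site.

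Among the members outside the interferon list, the genes of NHL-repeat proteins were considered first. These proteins use their NHL repeats to bind RNA or other proteins. Of the 4 genes of this class, all 3 that were tested rose, against 23.8% of all tested genes, and Trim32 was listed at 0 in every library. A class of 3 tested genes allows no statement on the class. The kinase gene Wee1, which dividing cells use, was also listed at 0, so a 0 in this table cannot be read as absence.

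Trim2, a ligase known from neurons, was at 17.9, 21.1 and 19.8 CPM with NC and at 40.03, 36.7 and 36.2 CPM with miR-497. The groups did not overlap. Trim2 (ENSMUSG00000027993, chr3:84160439-84306877, minus strand) rose by 0.94 on the log2 scale (adjusted p = 6.74e-08 in edgeR, SE 0.0819), the largest rise among the 44 tested members. Trim71, also known as Lin41, a let-7 target active in early development, was at 35.1, 39.5 and 39.8 CPM with NC and at 69.2, 67.7 and 77.5 CPM with miR-497. Trim71 (ENSMUSG00000079259, chr9:114507133-114564369, minus strand) rose by 0.91 (adjusted p = 3.55e-08 in edgeR, SE 0.0746). Trim3, the closest relative of Trim2, rose less, by 0.47 on the log2 scale, or from 29.6 ± 2.92 CPM with NC to 41.0 ± 2.87 CPM (SD, n = 3) (adjusted p = 0.000174 in edgeR, SE 0.0833).

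The chromatin proteins with a PHD finger and a bromodomain showed small differences. Trim33, a regulator of Smad4 and of transcription, was at 50.2, 48.0 and 53.6 CPM with NC and at 72.5, 75.0 and 73.6 CPM with miR-497. Its groups did not overlap, and the log2 fold change of Trim33 (chr3:103279293-103358775, plus strand) was 0.54 (adjusted p = 2.20e-06 in edgeR, SE 0.0641). Trim28, the co-repressor that KRAB zinc finger proteins recruit, was at 286, 291 and 296 CPM with NC and at 329, 322 and 314 CPM with miR-497. Trim28 (chr7:12999114-13031035, plus strand) was higher by 0.14 on the log2 scale (adjusted p = 0.0245 in edgeR, SE 0.0499), and it lost its call in 6 of 12 alternatives, with adjusted p up to 0.105 without NC replicate 2. Trim24, a co-regulator of nuclear receptors, had a log2 fold change of 0.04 with a 95% interval from -0.10 to 0.17 (edgeR adjusted p = 0.660). Trim66, at 1.27, 1.78 and 2.06 CPM with NC and 0.836, 1.16 and 1.71 CPM with miR-497, was too low for a narrow estimate (log2 fold change -0.45, 95% interval -1.19 to 0.29, edgeR adjusted p = 0.303).

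The largest fall outside the interferon list was that of Trim44, which lacks a RING finger and carries a zinc finger of the deubiquitinase type. Trim44 (ENSMUSG00000027189, chr2:102300119-102407828, minus strand) was at 151, 136 and 147 CPM with NC and at 88.8, 96.2 and 81.9 CPM with miR-497. Every miR-497 library was below every NC library. Trim44 fell by 0.70 on the log2 scale (adjusted p = 1.19e-07 in edgeR, SE 0.0639), or 1.62-fold lower. Trim59, a transmembrane member, was at 50.4, 50.3 and 48.0 CPM with NC and at 32.7, 35.5 and 29.2 CPM with miR-497, without overlap. Trim59 (ENSMUSG00000034317, chr3:69035288-69044755, minus strand) fell by 0.61 on the log2 scale (adjusted p = 5.26e-06 in edgeR, SE 0.0776). Trim39 and Trim16 fell by less, 0.39 and 0.24 on the log2 scale (edgeR adjusted p = 0.00482 and 0.00238).

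Trim47, a SPRY-domain ligase, was at 44.7, 41.9 and 43.9 CPM with NC and at 63.1, 62.4 and 66.8 CPM with miR-497. Its groups did not overlap, and the log2 fold change of Trim47 (chr11:116105752-116127210, minus strand) was 0.56 (adjusted p = 1.89e-06 in edgeR, SE 0.0650). Trim65 on the same strand covers 8.23% of the exon bases of Trim47 and was not called (log2 fold change -0.08). Trim8 rose by 0.48 on the log2 scale, from 94.6 ± 1.52 to 132 ± 4.54 CPM (SD, n = 3; edgeR adjusted p = 8.53e-07). Trim11 and Trim27 rose by 0.37 and 0.36. Trim37, whose MATH domain is unique in the family and which acts at the centrosome, rose by 0.28. Trim23, with an ARF domain, and Trim62 rose by 0.18 and 0.40, and both lost their call in about as many alternatives as Trim28, 7 and 6 of 12.

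**Figure D4:**
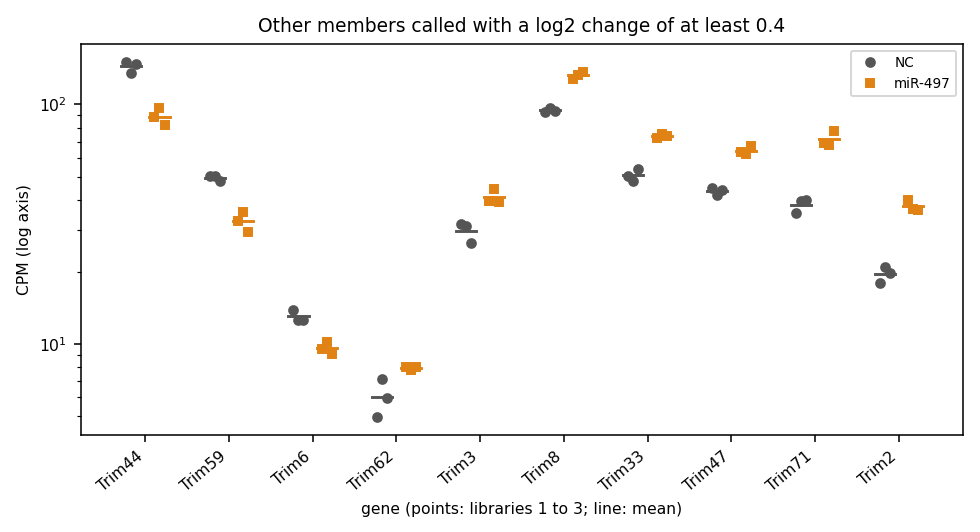
Level in CPM (vertical log axis) in each of the 6 libraries for the Trim genes outside the interferon list that were called with a log2 fold change of at least 0.4 in size, NC as circles, miR-497 as squares and the group mean as a line. Trim44, Trim59 and Trim6 lie lower with miR-497, the other 7 lie higher, and no pair of groups overlaps.

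The 18 members that were not called had log2 fold changes from -0.45 to 0.77, and 8 of them had a mean below 2 CPM with NC. None of the 18 had an unadjusted p under 0.05 in edgeR's test. Trim36, Trim46 and Trim9, which share a COS box that binds microtubules, were among them, as were Trim54, the tested muscle RING-finger gene, and the transmembrane Trim13. The 2 groups of libraries did not overlap for 27 of the 44 tested members, or for 57.4% of all tested genes. Below the filter were 23 members, of which 9 were listed at 0 in all libraries (Trim31, Trim32, Trim42, Trim43c, Trim58, Trim60, Trim61, Trim69 and Trim80). The other 14 had at most 48 counts over the 6 libraries: Trim29, Trim30c, Trim34b, Trim38, Trim40, Trim43a, Trim43b, Trim50, Trim52, Trim55, Trim63, Trim67, Trim72 and Trim75. Trim38, an interferon-list member, had 0 counts in each NC library and 1, 1 and 6 counts with miR-497.

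Per length of exon, Trim28 was the highest member with NC, at 70.0 ± 1.10 CPM per kb of exon (RPKM; SD, n = 3). Trim30a followed at 43.5 ± 1.58 RPKM and Trim35 at 30.3 ± 0.283 RPKM. The next 4, Trim14, Trim44, Trim8 and Trim16, lay between 25.7 and 25.0 RPKM and did not differ beyond their spread. Trim35, a SPRY-domain ligase, was at 138, 140 and 141 CPM with NC and at 140, 157 and 148 CPM with miR-497. Its log2 fold change was 0.09 with a 95% interval from -0.03 to 0.20 (edgeR adjusted p = 0.195), and it was called higher only with upper-quartile scaling (adjusted p = 0.0383).

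Sites for the seed of miR-497 were found in a similar share of the family and of all genes. The longest annotated 3′ UTR of each gene was searched on its own strand for TGCTGCT (a 7mer, or an 8mer when followed by A, TGCTGCTA) and for GCTGCTA. A site was found in 12 of the 44 tested members (27.3%) and in 3617 of 12859 tested genes with a 3′ UTR (28.1%). With the shortest annotated 3′ UTR, 6 members had one. Of the 12 members with a site 3 fell, Trim21, Trim56 and Trim59, and of the 32 without a site 10 fell. Among all tested genes 40.9% of those with a site and 23.5% of those without were lower. With the shortest 3′ UTR the order in the members was the other way: 3 of 6 with a site and 10 of 38 without fell. The shares of all tested genes were then 44.3% and 25.3%. The order in the members thus depends on which 3′ UTR is searched. In the longest 3′ UTR, the 3 genes with an 8mer were Trim2, which rose, and Trim35 and Trim68, which were not called. The shortest 3′ UTRs of Trim2, Trim35 and Trim33 held no site, while Trim68, Trim21, Trim56 and Trim59 kept theirs.

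The sites of these genes are shown in 30-base stretches with the match in capitals, because such sites were found in members that rose, that fell and that were not called.
Trim2, bases 2967 to 2974 of 4658 in the 3′ UTR: tgggggtggagTGCTGCTActaagatataa
Trim35, bases 1655 to 1662 of 2088: gttatgagttcTGCTGCTAtgaaatttgtg
Trim68, bases 846 to 853 of 1149: caagtgagattTGCTGCTAccaaacaaacc
Trim21, bases 100 to 106 of 1201: tttctggatacTGCTGCTcacttcctgttg
Trim59, bases 542 to 548 of 1506: gtagcactgctTGCTGCTtgtggataaact
Trim56, bases 299 to 305 of 6812: gcagctaaggcTGCTGCTgtagttttaggt
Trim33, bases 2253 to 2259 of 4866: caaaggtatccTGCTGCTgaggaataaatt

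Trim44, the largest fall outside the interferon list, had no site in 4358 bases, and Trim71 had none in 5512 bases. The members that follow had none apart from Trim21.

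Genes that work with Trim proteins were read from lists written from general knowledge. Of 4 tripartite-motif genes with other symbols, 3 were tested and 1 was lower: Pml, which builds the nuclear bodies of that name and responds to interferon, was at 129 ± 3.30 CPM with NC and 52.6 ± 5.00 CPM with miR-497 (SD, n = 3; log2 fold change -1.30, edgeR adjusted p = 1.51e-10). The microtubule proteins Mid1 and Mid2 were not called, with log2 fold changes of -0.54 and -0.13 (edgeR adjusted p = 0.0601 and 0.0962), and Mefv was listed at 0. Of 11 ubiquitin-conjugating enzymes, 10 were tested, 3 fell, 2 rose and 5 were not called, with a median log2 fold change of -0.02. These shares are near those of all tested genes, 26.0% lower and 23.8% higher. The largest fall was that of Ube2l6, the conjugating enzyme of the ubiquitin-like modifier ISG15, a log2 fold change of -1.495 (edgeR adjusted p = 2.26e-09), with 93.7 ± 12.6 CPM in NC and 33.3 ± 3.89 CPM in miR-497 libraries (SD, n = 3). Ube2e1 fell by 0.73 and Ube2d3 by 0.18 on the log2 scale, while Ube2d1 and Ube2w each rose by 0.47. Of 9 partners of Trim28 in gene silencing, 3 fell (Setdb1, Cbx5 and Dnmt1, by 0.31, 0.22 and 0.22), Atf7ip rose by 0.34, and 5 were not called, against the same 26.0% lower and 23.8% higher of all tested genes.

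Facts of the libraries that touch these values are as follows. Total counts ranged from 25777676 to 36159499 per library. NC library 3 was the lowest NC library for 5 of the 6 members that follow and for 24 of 29 interferon-stimulated genes (82.8%), against 36.2% of all tested genes. The interferon-stimulated genes summed to 6418, 6768 and 5888 CPM with NC and to 1329, 1275 and 1203 CPM with miR-497. This was noticed after the values were seen. Without NC replicate 3, 8 members in place of 6 passed the split: Trim12c and Trim34b came in. Without NC replicate 1 or NC replicate 2, 4 passed (Trim21, Trim30a, Trim30d and Trim34a). All 10 endothelial markers were measured, from 4.17 CPM for Vwf to 3554 CPM for Pecam1 with NC. Their summed level was 8450 to 9377 CPM over the 6 libraries. Of the 10, 6 were called higher with miR-497 and 2 lower, against 23.8% and 26.0% of all tested genes. Their log2 fold changes ran from -0.52 for Pecam1 to 1.03 for Emcn, so the sum hides changes in both directions. Of 6 leukocyte markers, Cd3e was at 0 and Ptprc was at 0.230 CPM or less. Their sum was 9.34 to 9.71 CPM with NC and 15.7 to 20.97 CPM with miR-497, in which Cd68 rose. Epithelial markers summed to 0.394 to 1.12 CPM. Those of fibroblasts summed to 153 to 165 CPM with NC and 180 to 216 CPM with miR-497. Of these, Col1a1 rose from 61.7 to 110 CPM, Pdgfrb fell by 0.37 on the log2 scale (edgeR adjusted p = 0.00497), Pdgfra was not called and Dcn was at 0.159 CPM or less. Those of smooth muscle summed to 36.8 to 38.0 CPM with NC and 67.3 to 76.4 CPM with miR-497. Nearly all of this sum was Acta2, which rose from 37.1 to 70.3 CPM. Myh11 was at 0.445 and 0.758 CPM and was not called. The part of these markers in the Trim values was not tested.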

How the data were processed

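Poly(A)-enriched RNA of 6 libraries was measured, and the titles gave groups and replicate numbers. The authors deposited raw read counts per gene, with no normalization. The submitters' processing notes name STAR 2.5.4b, featureCounts, Subread 1.6.1, edgeR 3.32.1 and the build GRCm38, without their roles. The annotation release, the strand setting and the handling of reads that align to several places are not given in the sources used here. Reads without molecular identifiers are not independent molecules.

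Symbols, positions, exon lengths and 3′ UTRs came from GENCODE M21 (GRCm38), which matched 55141 identifiers. Of 68 protein-coding Trim genes, 1 is not reported here. Genes were filtered with filterByExpr (minimum count 10, minimum total 15), scaled by TMM and tested with edgeR 4.0.16 in R 4.3.3 (quasi-likelihood F-test, group as the only term, 2-sided, Benjamini-Hochberg over all 14661 genes tested, threshold 0.05). Intervals are 95% on the log2 scale. RPKM was computed from CPM and merged exon length. Motifs and figures were made in Python 3.11.15 with pandas 2.3.3 and matplotlib 3.10.9. The fit was tested on simulated data. Shown one by one are the interferon list, other members with a call, a log2 fold change of at least 0.5 in size and groups without overlap, the 3 highest per length and the PHD-bromodomain class; any further members were picked with their values in view. The members and all lists were chosen with earlier results of these data known.

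Alternatives were DESeq2 1.42.0 size factors and Wald test, upper-quartile scaling, no filter, a mean count of at least 50, the replicate number as a block, each library left out, and the shortest 3′ UTR.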

Additional observations from a re-analysis of the deposited data

How the results depend on the processing

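Of the 26 called members, 21 kept their call in all 12 alternative fits. The other 5 were Trim23, Trim28, Trim30b, Trim56 and Trim62, and Trim30b had too few counts to be tested at a mean count of at least 50. Over the alternatives, 11 to 14 members were lower and 10 to 14 higher; leaving out 1 library gave 11 to 13 and 10 to 11. The interferon list had 6 to 9 lower and always 1 higher, and 5 members outside it were lower in every alternative. The count of members called lower and at -1 or below ranged from 4 to 8, with Trim21, Trim30a, Trim30d and Trim34a among them in all 12. Tripartite-motif genes with other symbols had 2 lower in place of 1 without the filter, and 1 to 2 with 1 library left out. Sites in members' 3′ UTRs fell from 12 to 6 with the shortest 3′ UTR. Trim5 turned from 0.10 to -0.0141 without NC replicate 2, in a range of -0.0141 to 0.203 with 1 library left out. The cause of these shifts was not tested. With the replicate block, 3563 genes were lower and 3177 higher over all tested genes, with 13 and 10 members. Trim23, Trim28 and Trim62 then lost their calls (adjusted p = 0.0736, 0.0911 and 0.0577). Libraries with the same number did not deviate together (correlations -0.12, -0.04 and -0.13), so the numbers are not read as a pairing. No scaling shifted the median log2 fold change of the tested genes by over 0.05. The 14 members with 1 to 48 counts in all were left out of the test by the count filter. Without the filter they were tested. Trim34b was then called lower and at -1 or below, as in 3 of the 12 alternatives.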
